A study of Mus musculus with 8 samples.

Results

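The prostaglandin genes described here were 7 named members of the pathway that makes, removes and receives prostaglandins: Ptgs1, Ptgs2, Ptges, Ptgis, Ptgds, Hpgd and Ptger4. They were picked by name from the 28956 genes of the count tables. All 7 were in the tables. Their levels were compared between unfractured and fractured femur in each class of bone stromal cell.

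The cells came from C57BL/6 female mice that were 12 weeks old when bone was taken. In the Fracture group the femur had been broken at 10 weeks by three-point bending and then held with an intramedullary nail, and the bone was collected on day 14. The Fracture mice had received ketamine and xylazine and, for pain, carprofen at 4 mg per kg body weight, a nonsteroidal drug that inhibits cyclooxygenase. Carprofen was given in the first days and later only where required, so whether it was still present on day 14 is not known. The Control mice were age-matched and not fractured, and whether they had received carprofen is not given in the sources used here, so that fracture, surgery and drug cannot be told apart in this comparison. Each group held 2 numbered cell preparations with 2 droplet libraries each, 8 libraries in all, and how many animals went into a preparation is likewise not given. Blood cells had been depleted with beads against lineage antigens, CD45 and CD117, so any blood classes are leftovers of that step. The libraries of a preparation were summed and n = 2 preparations per group, and p-values measure only the spread between these preparations.

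Prostaglandins are short-range lipid signals. Phospholipases release arachidonic acid from membranes, the cyclooxygenases Ptgs1 and Ptgs2 turn it into the shared intermediate prostaglandin H2, and terminal synthases then make one product each. Ptges makes prostaglandin E2, Ptgis makes prostacyclin and Ptgds makes prostaglandin D2, while Hpgd, 15-hydroxyprostaglandin dehydrogenase, starts the breakdown of prostaglandin E2. Ptger4 encodes EP4, a receptor of prostaglandin E2 that raises cyclic AMP. In bone, prostaglandin E2 is known for its role in fracture repair, and Ptgs2 is the inducible cyclooxygenase, while Ptgs1 is expressed in many resting cells and in platelets.

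Each unique molecular identifier (UMI) stands for 1 captured transcript, and a level is given as CPM, the count scaled to the total UMIs of the same cells. The libraries held 56543151 to 76437145 UMIs in Control and 69102733 to 89126291 in Fracture. Of 48903 barcodes, 45328 passed the filters of the published methods, and libraries shared at most 46 barcodes. The smallest deposited barcode held 1929 UMIs in Fracture and 1 UMI in Control. Clustering without the pathway genes gave 6 stromal classes, each carrying at least 7 of its 7 to 10 marker genes, and 3 leftover blood classes. Transcripts of chondrocyte markers were also counted in the other classes. In erythroid-like cells, which should hold none, the 10 chondrocyte markers together stood at 39.4% and 36.5% of their level over all cells in the Fracture preparations, against 2.85% and 1.8% in Control, and none of the 10 was at 0. Endothelial-like cells stood at 23.3% and 23.4% in Fracture, smooth muscle-like cells at 18.5% and 12.1% and fibroblast-like cells at 19.7% and 18.3%. Osteoblast-like cells stood at 14.0% and 14.4% in Fracture (44.2% and 78.3% in Control). BMSC-like cells (bone mesenchymal stromal cells) stood at 6.04% and 6.31% in Fracture. The part of these transcripts in the results below was not tested.

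Across the 6 classes there were 42 pairs of a member and a class, of which 36 passed the filter on low counts, 18 were higher in Fracture, 8 were lower and 10 were not called by the quasi-likelihood test of edgeR at a Benjamini-Hochberg adjusted p under 0.05. In chondrocyte-like cells 4 members rose and 1 fell, where 19.1% of all genes tested were called higher and 18.2% lower. In BMSC-like cells 5 rose and 1 fell, beside 25.6% and 26.0% of all genes. In osteoblast-like cells 2 rose and 2 fell, beside 9.63% and 6.55%. In fibroblast-like cells 2 rose and 1 fell, beside 7.78% and 7.41%. In endothelial-like cells 3 rose and 3 fell, beside 18.5% and 16.6%. In smooth muscle-like cells 2 rose and none fell, beside 14.5% and 12.9%. The median log2 fold change of the members tested was 1.16 in chondrocyte-like, 1.09 in BMSC-like, 0.20 in osteoblast-like, 0.43 in fibroblast-like, 0.99 in endothelial-like and 1.45 in smooth muscle-like cells, and over all genes it lay between -0.03 and 0.01. Fold changes are normalised by TMM, which sets the balance of all genes near 0. With plain library size the median of all genes was -0.22 in BMSC-like, -0.16 in chondrocyte-like and -0.11 in endothelial-like cells. The share of calls that were higher then fell from 49.6% to 35.2%, from 51.3% to 32.7% and from 52.7% to 38.2% in these classes, and in osteoblast-like cells it went from 59.5% to 69.2%. Hpgd and Ptgs1 in BMSC-like cells and Ptgis and Ptgs1 in osteoblast-like cells then lost their calls. Of the 26 calls, 6 remained without either Fracture preparation: Ptgs2, Ptges, Ptgis and Ptgds in chondrocyte-like and Ptgs2 and Ptges in BMSC-like cells.

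**Figure D1:**
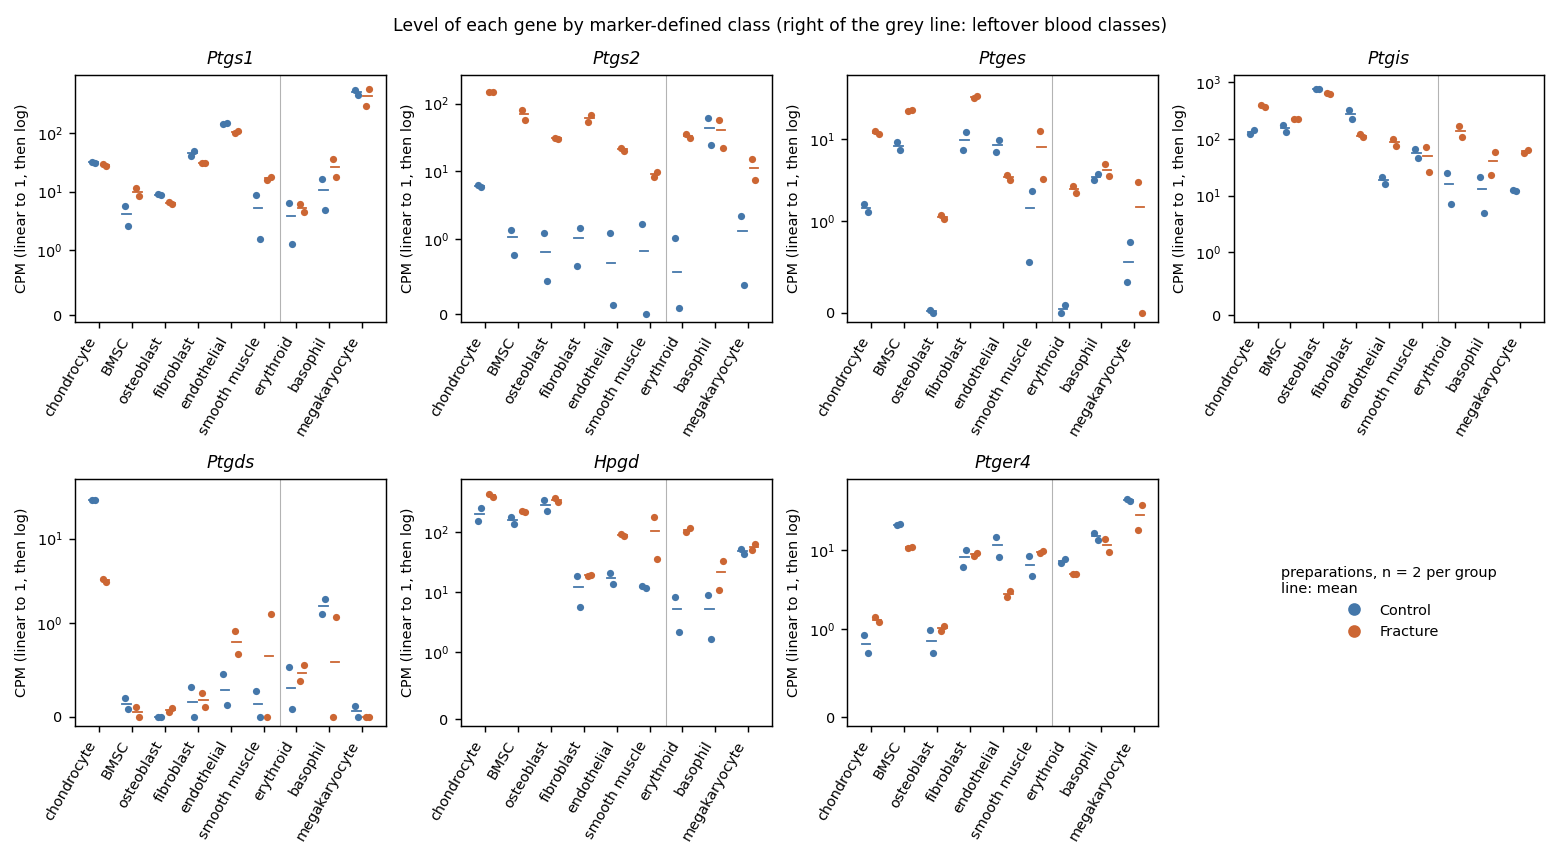
Level of each member by class in CPM (axis linear to 1, then logarithmic), with 1 point per preparation and a line at the mean of n = 2. Ptgs2 is above 8 CPM in every stromal class in Fracture and below 7 CPM in every one in Control, and Ptgds is above 2 CPM in no class but chondrocyte-like cells.

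Ptgs2 (GRCm38, chromosome 1, 150100031 to 150108227, plus strand), the inducible cyclooxygenase, was higher in Fracture in all 6 stromal classes. The Control preparations of chondrocyte-like cells held 6.20 and 5.85 CPM and the Fracture preparations 149 and 147 CPM (log2 fold change 4.77, SE 0.06, edgeR adjusted p = 0.000692). In BMSC-like cells it was at 1.37 and 0.79 CPM in Control and at 81.4 and 57.8 CPM in Fracture (log2 fold change 6.17, SE 0.34, edgeR adjusted p = 0.00131). Both are separated by far more than the spread between preparations. In fibroblast-like cells the level went from 0.64 and 1.44 to 53.2 and 67.2 CPM (log2 fold change 6.12, SE 0.33, edgeR adjusted p = 0.00531). This rested on 2 UMIs in each Control preparation, so the SE is smaller than counting error alone would give. Osteoblast-like cells went from 1.21 and 0.44 to 30.7 and 30.4 CPM (log2 fold change 5.09, SE 0.42, edgeR adjusted p = 0.00729). In all 4 of these classes the Control preparations were under 7 CPM and the Fracture preparations over 30 CPM.

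Endothelial-like and smooth muscle-like cells also rose. Endothelial-like cells were at 1.24 and 0.12 CPM in Control and at 22.1 and 19.97 CPM in Fracture (log2 fold change 5.0, SE 0.57, edgeR adjusted p = 0.00913). Smooth muscle-like cells were at 1.67 and 0 CPM in Control and at 8.35 and 9.70 CPM in Fracture (log2 fold change 2.88, SE 0.73, edgeR adjusted p = 0.0336). The smooth muscle-like call rested on 6 UMIs in Control and 12 and 15 in Fracture and was lost without either Fracture preparation. Erythroid-like cells were at 1.05 and 0.08 CPM in Control and at 36.1 and 31.3 CPM in Fracture, above endothelial-like, smooth muscle-like and also osteoblast-like cells. In the order of Fracture levels, chondrocyte-like cells stood apart at the top, and BMSC-like, fibroblast-like, basophil-like and erythroid-like cells followed, overlapping from one to the next among these 4. Osteoblast-like and then endothelial-like cells came next by their means, and only the wide basophil-like range reached down to the osteoblast-like level. Within endothelial-like cells, the cluster led by the cartilage gene Acan held no Ptgs2 UMI in Control and 80.7 and 81.5 CPM in Fracture. Sinusoidal cells held 4.18 and 3.73 CPM and the Ramp3-led cluster 3.5 and 2.74 CPM of it in Fracture. Without the endothelial-like clusters led by cartilage, bone or haemoglobin genes, an alternative chosen after the data were seen, the endothelial-like log2 fold change was 3.39 and still called.

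The share of cells with a Ptgs2 UMI, after each cell was thinned to 1000 UMIs, separated these classes further. It was 10.8% and 10.6% of chondrocyte-like, 4.68% and 3.86% of BMSC-like, 3.19% and 4.19% of fibroblast-like and 2.35% and 2.42% of osteoblast-like cells in Fracture. Of the erythroid-like cells 2.23% and 1.72% had one. Endothelial-like cells (1.43% and 1.30%) and smooth muscle-like cells (0.58% and 0.51%) lay below the erythroid-like share. Erythroid-like cells held more of the chondrocyte markers in Fracture than these classes, so the erythroid-like share does not measure the background within another class. The osteoblast-like share was above the erythroid-like one by a small margin, while the osteoblast-like CPM was below that of erythroid-like cells. With 2 preparations against 2 the smallest p of the exact permutation test is 0.333, so shares are given as values. The median depth before thinning was 7969.5 to 8281 UMIs in erythroid-like, 7508 to 8073.5 in endothelial-like, 7393.5 to 7737 in smooth muscle-like and 12301 to 13185 in chondrocyte-like cells of the Fracture preparations.

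Set against the 10 chondrocyte markers in the same cells, Ptgs2 in Fracture stood at 1.39 and 1.39 CPM per 1000 CPM of marker in chondrocyte-like cells. The ratio was 1.28 and 1.23 in erythroid-like and 1.32 and 1.22 in endothelial-like cells, close to that of cartilage. It was higher in osteoblast-like (3.07 and 3.02), fibroblast-like (3.79 and 5.26) and BMSC-like cells (18.8 and 13.1), and lower in smooth muscle-like cells (0.63 and 1.15). The ratio is an average over chondrocyte subclasses that differ widely in Ptgs2.

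**Figure D2:**
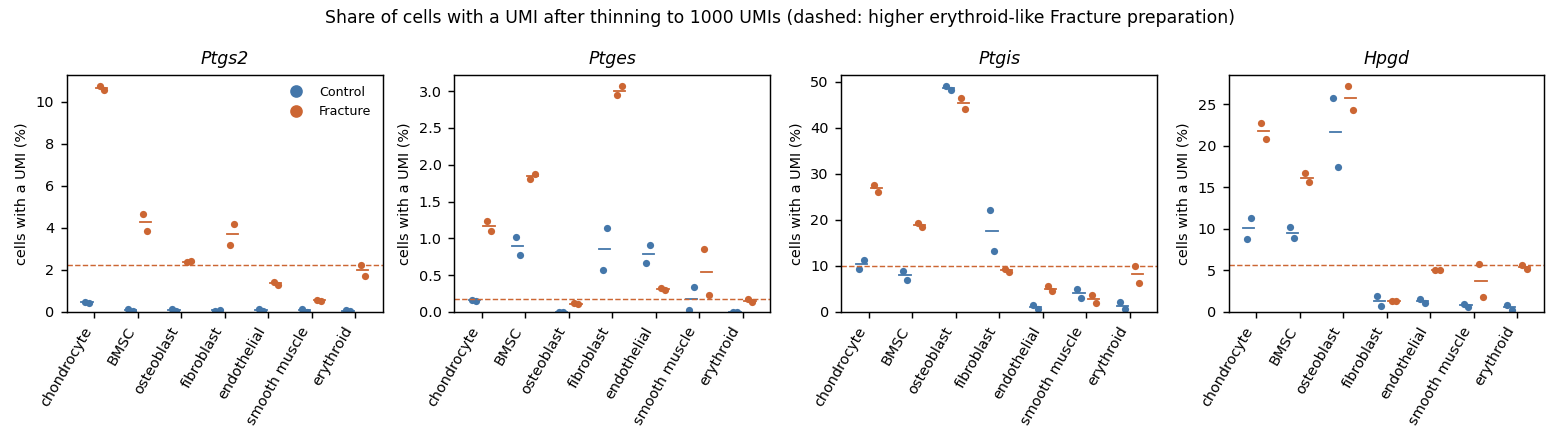
Percent of cells with at least 1 UMI after thinning to 1000 UMIs, by class, with 1 point per preparation, a line at the mean and a dashed line at the higher erythroid-like Fracture preparation. Ptgs2 is above that line in chondrocyte-like, BMSC-like, fibroblast-like and osteoblast-like cells, and below it in endothelial-like and smooth muscle-like cells.

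**Figure D3:**
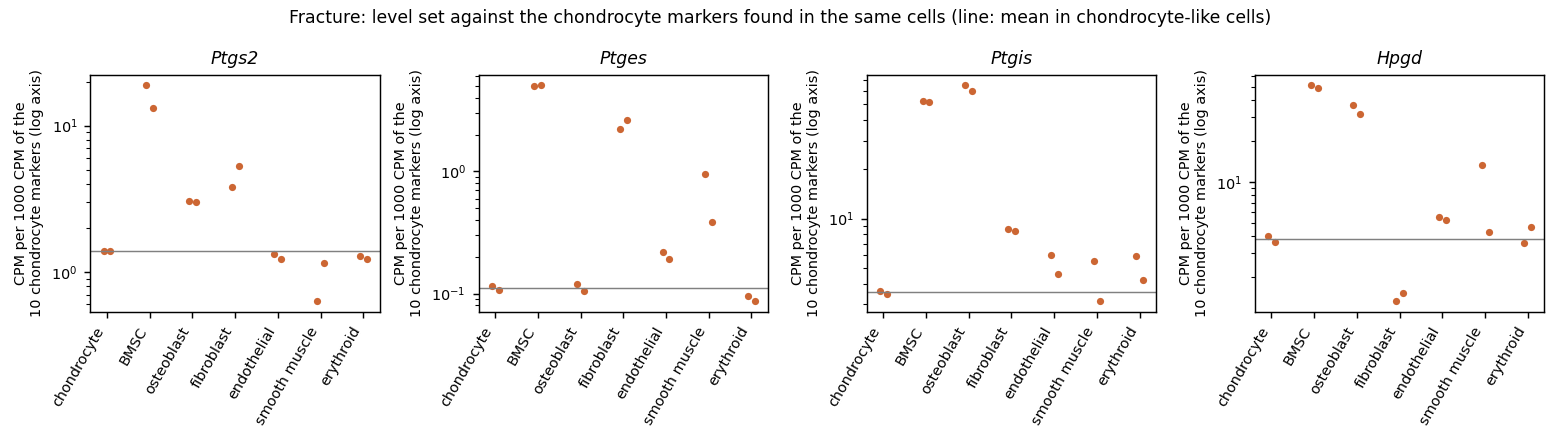
Level in the 2 Fracture preparations per 1000 CPM of the 10 chondrocyte markers in the same cells (log axis), with a line at the mean of chondrocyte-like cells. For Ptgs2 the erythroid-like and endothelial-like points lie near the line, and the BMSC-like points, at 18.8 and 13.1, are the furthest above it.

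Within chondrocyte-like cells Ptgs2 was highest in the hypertrophic subclass (named from Col10a1, Ihh, Mmp13, Spp1 and Ibsp), the cells that enlarge before cartilage is replaced by bone. Hypertrophic cells were at 25.7 and 21.9 CPM in Control and 255 and 255 CPM in Fracture (log2 fold change 3.43, SE 0.11, edgeR adjusted p = 0.000697). Their number was 376 and 158 cells in Control and 2449 and 2500 in Fracture, so the class value also holds a change of makeup. The cluster led by Lcn2 was at 0.41 and 1.26 CPM in Control and at 119 and 111 CPM in Fracture (log2 fold change 7.60, SE 0.33, edgeR adjusted p = 0.000555). The cluster led by Serpina1a rose from 0.71 and 0.38 to 13 and 9.63 CPM, and that led by Top2a, a proliferation gene, from 4.20 and 1.96 to 32.4 and 48.7 CPM. Hypertrophic cells thus held the highest level in both groups, and each of the 4 chondrocyte subclasses tested was higher in Fracture. The Lcn2-led and Serpina1a-led clusters passed the filter on low counts through Fracture. The Serpina1a-led level in Fracture was below the erythroid-like 36.1 and 31.3 CPM, and the Top2a-led level overlapped it.

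Among mesenchymal subclasses, dpMSC-like cells (diaphyseal stromal cells, led by Lpl and Adipoq) went from 0.61 and 0 to 85.9 and 63.0 CPM, and mpMSC-like cells (metaphyseal, led by Mmp9) from 3.06 and 2.38 to 50.6 and 45.5 CPM (log2 fold change 4.26, SE 0.17, edgeR adjusted p = 0.00219). The dpMSC-like cells numbered 1705 and 1225 in Control and only 235 and 282 in Fracture. Ptgs2 passed the filter on low counts in 10 subclasses and was called higher in each. In several of these Control held almost no Ptgs2, and the filter was passed through the Fracture counts. The number of subclasses called is therefore no separate support for a general rise. In Fracture the osteoblast-like subclass, at 27.0 and 29.1 CPM, was below the erythroid-like 36.1 and 31.3 CPM. The mesenchymal clusters led by Ptprz1 (31.5 and 35.2 CPM) and Top2a (31.0 and 31.7 CPM) overlapped that level. The share of all genes called in either direction was 20.5% in hypertrophic, 27.0% in Lcn2-led, 7.72% in Serpina1a-led and 8.76% in Top2a-led chondrocyte-like cells. It was 42.5% in dpMSC-like, 25.9% in mpMSC-like, 15.2% in osteoblast-like and 16.8% in fibroblast-like subclasses, and 3.19% and 9.48% in the mesenchymal clusters led by Ptprz1 and Top2a.

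Which cells held the Ptgs2 UMIs changed between the groups. In Control 81.9% of 2132 Ptgs2 UMIs lay in the basophil-like cluster, a blood leftover that also carries neutrophil markers, and 12.1% in chondrocyte-like cells. In Fracture 85.9% of 32538 Ptgs2 UMIs lay in chondrocyte-like cells. The basophil-like level was 62.2 and 24.5 CPM in Control and 58.0 and 22.3 CPM in Fracture, and the groups overlapped. These shares also follow the number of cells, which was 3218 basophil-like cells in Control and 179 in Fracture.

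**Figure D4:**
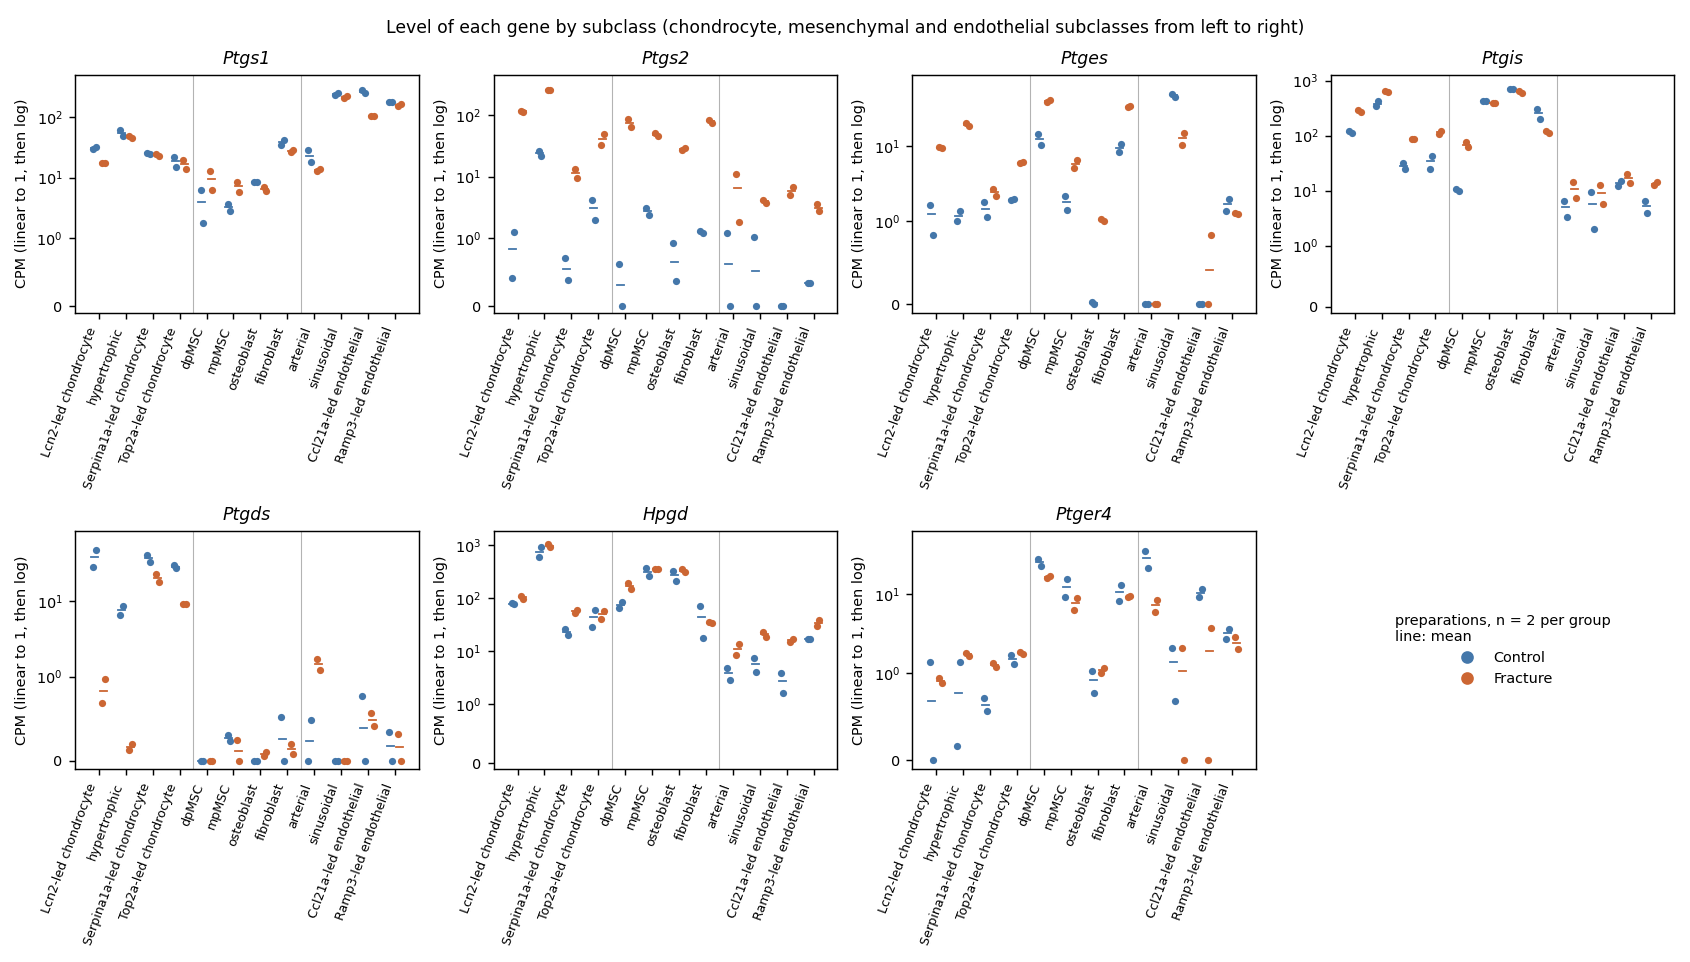
Level of each member in 12 subclasses in CPM (axis linear to 1, then logarithmic), with 1 point per preparation and a line at the mean of n = 2; grey lines part chondrocyte, mesenchymal and endothelial subclasses. Ptgs2 is highest in hypertrophic cells in both groups, Ptges falls in sinusoidal cells and rises in most others, and Ptgds falls in cartilage.

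Ptges (chromosome 2, 30889471 to 30929863, minus strand), the inducible prostaglandin E synthase, rose beside Ptgs2 in chondrocyte-like, BMSC-like and fibroblast-like cells and fell in endothelial-like cells. In chondrocyte-like cells it was at 1.6 and 1.30 CPM in Control and at 12.3 and 11.4 CPM in Fracture (log2 fold change 3.15, SE 0.12, edgeR adjusted p = 0.00112). In BMSC-like cells it was at 9.23 and 7.28 CPM in Control and at 21.6 and 22.3 CPM in Fracture (log2 fold change 1.6, SE 0.15, edgeR adjusted p = 0.00276). In fibroblast-like cells the level went from 7.38 and 12.2 to 31.0 and 33.7 CPM (log2 fold change 1.91, SE 0.23, edgeR adjusted p = 0.0155). The fibroblast-like cells held its highest level in Fracture, followed by BMSC-like and chondrocyte-like cells, and these 3 did not overlap, while the smooth muscle-like preparations, at 12.5 and 3.23 CPM, overlapped the chondrocyte-like ones. With clustering done without integration of the libraries, the BMSC-like difference was -0.11 on the log2 scale and was not called (edgeR adjusted p = 0.915).

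Osteoblast-like Ptges was also called higher, at 0.03 and 0 CPM in Control and 1.20 and 1.06 CPM in Fracture (edgeR adjusted p = 0.0128). It rested on 1 UMI in Control against 45 in Fracture, a ratio of 58.2 with an exact 95% counting interval of 9.92 to 2349. The thinned share, 0.12% and 0.10%, lay below the erythroid-like 0.17% and 0.13%. The ratio to the chondrocyte markers in Fracture, 0.120 and 0.105 per 1000, stood beside 0.115 and 0.108 in chondrocyte-like cells. In Control it was 0.0026 and 0 per 1000 in osteoblast-like cells. These cells held the markers in Control too, as given above, so the ratio does not measure background in this class. The thinned share was thus not above that of erythroid-like cells, and the part of background in the call was not tested.

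Endothelial-like Ptges fell from 6.87 and 9.82 to 3.66 and 3.13 CPM (log2 fold change -1.18, SE 0.26, edgeR adjusted p = 0.0318). The highest endothelial-like level was in sinusoidal cells (Stab2, Stab1, Flt4 and Vcam1), the marrow's thin-walled vessels, where it fell from 49.9 and 45.5 to 10.4 and 14.9 CPM (log2 fold change -1.85, SE 0.32, edgeR adjusted p = 0.0169, beside 7.44% of all genes called there). Arterial endothelial-like cells held no Ptges UMI in any preparation. Sinusoidal cells numbered 176 and 201 in Control and 60 and 71 in Fracture, so the class value also holds a change of makeup. Without the clusters led by cartilage, bone or haemoglobin genes the endothelial-like log2 fold change was -2.36 and still called, while the call was lost with clustering at resolution 0.2 (log2 fold change -1.04), without integration (-0.76) and without either Fracture preparation.

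In cartilage, hypertrophic cells went from 1.00 and 1.37 to 20.4 and 18.2 CPM of Ptges (log2 fold change 4.11, SE 0.20, edgeR adjusted p = 0.00112) and the Lcn2-led cluster from 1.63 and 0.84 to 9.65 and 9.34 CPM (log2 fold change 2.85, SE 0.22, edgeR adjusted p = 0.00188). The Serpina1a-led cluster did not pass the test, at 1.77 and 1.13 CPM in Control and 2.65 and 2.16 CPM in Fracture. The dpMSC-like cells rose from 14.4 and 10.3 to 39.2 and 40.7 CPM and the mpMSC-like cells from 2.14 and 1.43 to 5.09 and 6.49 CPM.

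The promoters of the pair that rose together are given from RefSeq (GRCm38.p6) as the 250 bases before the start site, with capitals marking matches to the GC box GGGCGG and, in Ptgs2, the C/EBP palindrome TTGCGCAA. The Ptgs2 window is chr1:150099781-150100030 on the plus strand and overlaps an exon of the noncoding gene Ptgs2os. The Ptges window is chr2:30903298-30903547 on the minus strand, inside the longer gene of the GENCODE annotation.
Ptgs2: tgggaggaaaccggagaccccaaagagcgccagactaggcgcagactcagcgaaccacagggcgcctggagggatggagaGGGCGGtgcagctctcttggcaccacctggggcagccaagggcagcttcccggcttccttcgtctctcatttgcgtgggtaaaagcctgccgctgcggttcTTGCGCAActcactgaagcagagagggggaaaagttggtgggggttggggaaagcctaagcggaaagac
Ptges: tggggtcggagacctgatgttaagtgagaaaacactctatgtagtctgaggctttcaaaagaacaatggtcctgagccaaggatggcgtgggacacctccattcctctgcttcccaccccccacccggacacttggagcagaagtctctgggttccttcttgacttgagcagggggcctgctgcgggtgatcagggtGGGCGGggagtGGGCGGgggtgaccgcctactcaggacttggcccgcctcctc

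A search for 6 motifs covered both strands of the 300 bases from 250 before to 50 after each start: GGGCGG, TTGCGCAA, the E-box CACGTG, the cyclic AMP half-site TGACG, the AP-1 site TGACTCA and the TATA box TATAAA. In Ptgs2 the GC box began 170 bases and TTGCGCAA 69 bases before the start, and TGACG (minus strand) and CACGTG overlapped each other 14 and 17 bases after it. In Ptges the GC box was found 53 and 42 bases before the start and no other motif was. Of all 32851 promoter entries, 35.7% held GGGCGG, 0.183% TTGCGCAA, 7.15% CACGTG, 20.8% TGACG, 5.20% TGACTCA and 13.6% TATAAA. These are matches of letters and no measure of binding. Of the 7 members 6 had a promoter entry, and Ptgis had none.

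**Figure D5:**
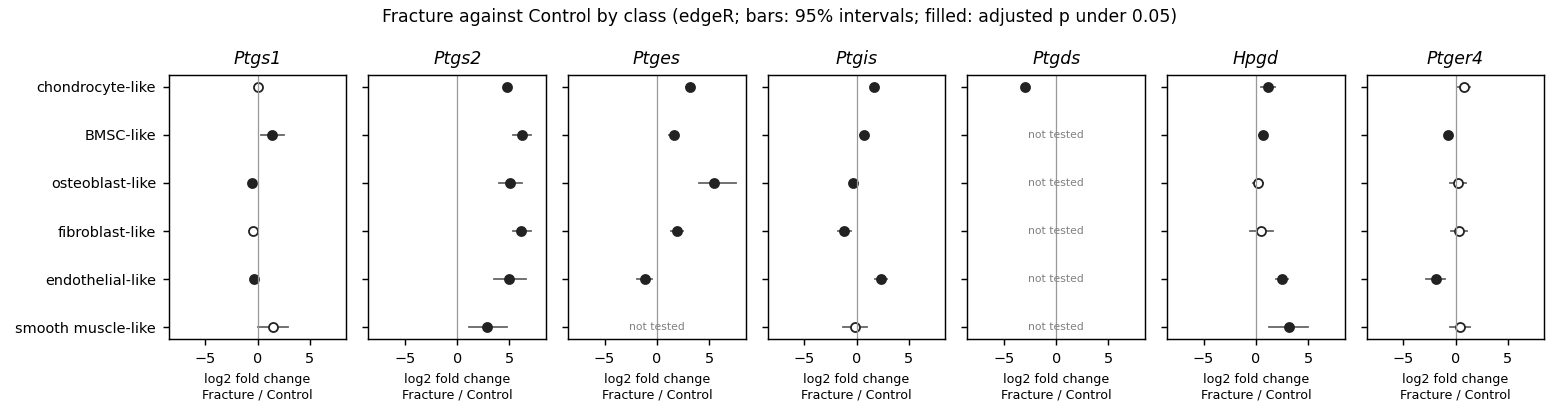
Log2 fold change of Fracture over Control by class for the 7 members, from edgeR on sums per preparation (n = 2 per group), with bars for 95% intervals and filled points for an adjusted p under 0.05. The bars can be narrower than counting error alone. Ptgs2 is above 0 in all 6 classes, whereas Ptges, Ptgis and Ptgs1 have filled points on both sides of 0.

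Ptgis (chromosome 2, 167191805 to 167240604, minus strand), prostacyclin synthase, was highest in osteoblast-like cells in both groups and moved in opposite directions between classes. Chondrocyte-like cells rose from 124 and 143 to 389 and 367 CPM (log2 fold change 1.65, SE 0.09, edgeR adjusted p = 0.00190). BMSC-like cells rose from 178 and 132 to 227 and 228 CPM (log2 fold change 0.74, SE 0.15, edgeR adjusted p = 0.0156). Fibroblast-like cells fell from 318 and 222 to 121 and 108 CPM (log2 fold change -1.15, SE 0.23, edgeR adjusted p = 0.0374). Osteoblast-like cells fell from 747 and 758 to 653 and 609 CPM, a small change (log2 fold change -0.32, SE 0.07, edgeR adjusted p = 0.0451). The groups did not overlap in any of these 4 classes, but with 2 preparations per group such separation is often reached by chance. The thinned fibroblast-like share went from 22.1% and 13.1% to 9.39% and 8.57%, and in Fracture it overlapped the 9.99% and 6.25% of erythroid-like cells, as did the CPM (166 and 107 in erythroid-like cells).

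The BMSC-like subclasses were far apart in level, and dpMSC-like cells fell in number as given above while mpMSC-like cells went from 864 and 490 to 499 and 544, so the class value also holds a change of makeup. The dpMSC-like cells went from 10.5 and 9.67 to 75.2 and 61.9 CPM of Ptgis (log2 fold change 3.01, SE 0.16, edgeR adjusted p = 0.000379), while mpMSC-like cells were at 421 and 426 CPM in Control and 385 and 391 CPM in Fracture (log2 fold change 0.03, 95% interval -0.15 to 0.20). The dpMSC-like level in Fracture was below that of erythroid-like cells, which held 24.7 and 7.25 CPM of Ptgis in Control and 166 and 107 CPM in Fracture. In cartilage Ptgis rose in all 4 subclasses tested, from 120 and 110 to 295 and 267 CPM in the Lcn2-led cluster and from 347 and 421 to 648 and 621 CPM in hypertrophic cells. Serpina1a-led cells, at 86.2 and 86.5 CPM in Fracture, were below the erythroid-like level, and Top2a-led cells, at 109 and 122 CPM, lay within it. The small mesenchymal cluster led by Ptprz1 held the highest level of all, 1897 and 2016 CPM in Control and 1224 and 1135 CPM in Fracture, and fell (log2 fold change -0.64, SE 0.12, edgeR adjusted p = 0.0440). In the osteoblast-like and fibroblast-like subclasses, by contrast with the class sums, Ptgis was not called (log2 fold change -0.28, edgeR adjusted p = 0.0668, and -1.01, edgeR adjusted p = 0.0618).

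Endothelial-like Ptgis was called higher, at 21.5 and 15.9 CPM in Control and 99.4 and 74.3 CPM in Fracture (log2 fold change 2.33, SE 0.21, edgeR adjusted p = 0.00730). Its thinned share, 5.60% and 4.47%, lay below the 9.99% and 6.25% of erythroid-like cells, and the part of background in the call was not tested. Without the clusters led by cartilage, bone or haemoglobin genes its log2 fold change was 1.21 and still called. Smooth muscle-like cells, at 66.7 and 46.6 CPM in Control and 73.0 and 26.5 CPM in Fracture, overlapped between the groups. Ptgis shares its position with 1110018N20Rik on the other strand, and whether counting used strand is not given in the sources used here, so that their reads may not be told apart. That gene was at 34.5 and 21.8 CPM in Control and 4.87 and 1.29 CPM in Fracture smooth muscle-like cells, and at 1.07 and 1.95 CPM in Control and 5.01 and 5.02 CPM in Fracture chondrocyte-like cells.

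Ptgds (chromosome 2, 25466709 to 25470046, minus strand), prostaglandin D synthase, was a gene of chondrocyte-like cells, which held 94.6% of its 1269 UMIs in Control and 94.9% of its 633 UMIs in Fracture. In these cells it fell from 28.3 and 28.4 to 3.36 and 3.03 CPM (log2 fold change -3.00, SE 0.08, edgeR adjusted p = 0.000853). In the other 5 stromal classes it was under 2 CPM and did not pass the filter. The Serpina1a-led cluster held the highest level in Fracture, while in Control it overlapped the Lcn2-led cluster. It numbered 865 and 296 cells in Control and 854 and 910 in Fracture. The Lcn2-led cluster went from 540 and 137 to 2899 and 3079, so the class value also holds a change of makeup. The fall was also found within subclasses. Lcn2-led cells fell from 28.0 and 46.5 to 0.69 and 0.97 CPM (log2 fold change -5.26, SE 0.32, edgeR adjusted p = 0.00100). Hypertrophic cells went from 6.50 and 8.55 to 0.13 and 0.20 CPM (log2 fold change -5.39, SE 0.37, edgeR adjusted p = 0.00211) and Top2a-led cells from 29.8 and 26.7 to 8.99 and 9.01 CPM. Serpina1a-led cells were at 40.2 and 32.7 CPM in Control and 22.6 and 17.9 CPM in Fracture, which did not pass the test (log2 fold change -0.75, edgeR adjusted p = 0.0561).

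Hpgd (chromosome 8, 56294585 to 56321043, plus strand), the enzyme that begins prostaglandin breakdown, was high in osteoblast-like and chondrocyte-like cells. Chondrocyte-like cells rose from 154 and 250 to 427 and 387 CPM (log2 fold change 1.16, SE 0.25, edgeR adjusted p = 0.0291). BMSC-like cells rose from 181 and 135 to 222 and 215 CPM (log2 fold change 0.66, SE 0.15, edgeR adjusted p = 0.0212). Osteoblast-like cells, at 342 and 227 CPM in Control and 367 and 317 CPM in Fracture, overlapped and were not called. Fibroblast-like cells, at 18.9 and 5.76 CPM in Control and 18.7 and 19.4 CPM in Fracture, were not called either.

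The cartilage subclasses differed in level, and with more hypertrophic cells in Fracture, as given above, the chondrocyte-like class value of Hpgd also holds a change of makeup. Hypertrophic cells, of which Hpgd was a leading gene, were at 577 and 914 CPM in Control and 1018 and 920 CPM in Fracture and did not pass the test (log2 fold change 0.39, edgeR adjusted p = 0.276). Lcn2-led cells rose from 79.9 and 75.4 to 110 and 96.8 CPM (log2 fold change 0.53, SE 0.09, edgeR adjusted p = 0.0138), and Serpina1a-led cells from 25.7 and 20.2 to 52.9 and 58.6 CPM. In Fracture the Serpina1a-led level was below the erythroid-like 100.3 and 118 CPM, and the Lcn2-led level overlapped it. The dpMSC-like cells rose from 63.5 and 84.5 to 190 and 149 CPM (log2 fold change 1.44, SE 0.19, edgeR adjusted p = 0.00356), and mpMSC-like cells, at 360 and 263 CPM in Control and 356 and 355 CPM in Fracture, were not called. As dpMSC-like cells held less Hpgd in Control and fell in number as given above, the BMSC-like class value also holds a change of makeup. The proliferating mesenchymal cluster led by Top2a fell, from 408 and 277 to 189 and 150 CPM.

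Endothelial-like Hpgd went from 20.8 and 13.7 to 91.7 and 86.0 CPM (log2 fold change 2.49, SE 0.21, edgeR adjusted p = 0.00730). Erythroid-like cells went from 8.40 and 2.20 to 100.3 and 118 CPM, and the thinned endothelial-like share of 5.08% and 5.05% lay below the erythroid-like 5.66% and 5.13%, in 1 preparation by a narrow margin. Without the clusters led by cartilage, bone or haemoglobin genes the endothelial-like log2 fold change was 1.44 and still called. Smooth muscle-like Hpgd went from 12.5 and 11.7 to 176 and 36.2 CPM (log2 fold change 3.13, SE 0.75, edgeR adjusted p = 0.0312), and the Fracture preparations differed from each other several-fold. Without Fracture preparation 1 the log2 fold change was 1.6 and the call was lost. The smooth muscle-like share of 5.78% and 1.76% in Fracture was above the erythroid-like 5.66% in preparation 1 and below the 5.13% in preparation 2.

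Ptger4 (chromosome 15, 5206661 to 5244187, minus strand), the EP4 receptor, fell in BMSC-like and endothelial-like cells. BMSC-like cells fell from 20.6 and 21.1 to 10.7 and 10.8 CPM (log2 fold change -0.76, SE 0.11, edgeR adjusted p = 0.00577). Endothelial-like cells fell from 14.8 and 8.20 to 2.57 and 3.05 CPM (log2 fold change -1.90, SE 0.35, edgeR adjusted p = 0.0208). Neither class overlapped between the groups, which with 2 preparations per group is often reached by chance. The arterial cells among the endothelial-like ones numbered 506 and 325 in Control and 123 and 165 in Fracture, so the class value also holds a change of makeup. The endothelial-like share with a UMI was 1.69% and 1.13% in Control and 0.29% and 0.29% in Fracture. Erythroid-like shares were 0.80% and 0.74% in Control and 0.55% and 0.49% in Fracture. Those cells held 181% and 179% of the Ptger4 level over all cells in Fracture, so their share is no measure of background for this gene.

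Arterial endothelial-like cells (Gja4, Gja5, Sema3g, Bmx, Sox17 and Efnb2) held 35.4 and 21.6 CPM of Ptger4 in Control and 5.90 and 8.48 CPM in Fracture (log2 fold change -1.87, SE 0.36, edgeR adjusted p = 0.0273, beside 13.6% of all genes called there). Within the BMSC-like subclasses the difference did not pass the test, and dpMSC-like cells were at 28.3 and 23.0 CPM in Control and 16.0 and 17.2 CPM in Fracture (log2 fold change -0.37, edgeR adjusted p = 0.137). The mpMSC-like cells held less in Control, 9.34 and 15.5 CPM, and dpMSC-like cells fell in number as given above. The BMSC-like class value of Ptger4 thus also holds a change of makeup. With clustering done without integration, the BMSC-like class difference was 0.10 and was not called (edgeR adjusted p = 0.842). Chondrocyte-like and osteoblast-like cells were under 2 CPM in every preparation. Ptger4 overlaps Ttc33 on the other strand, which in endothelial-like cells was at 28.7 and 29.6 CPM in Control and 25.9 and 28.0 CPM in Fracture. In BMSC-like cells Ttc33 was at 29.2 and 32.6 CPM in Control and 22.7 and 22.6 CPM in Fracture, lower together with Ptger4.

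Ptgs1 (chromosome 2, 36230426 to 36252272, plus strand), the constitutive cyclooxygenase, was highest in the leftover megakaryocyte-like cells, at 549 and 441 CPM in Control and 294 and 555 CPM in Fracture, and next in endothelial-like cells. Endothelial-like cells fell from 142 and 146 to 99.7 and 108 CPM (log2 fold change -0.35, SE 0.08, edgeR adjusted p = 0.0301). In the endothelial-like cluster led by Ccl21a it fell from 275 and 242 to 103 and 104 CPM (log2 fold change -1.33, SE 0.13, edgeR adjusted p = 0.00300, beside 14.7% of all genes called there). In the Ramp3-led cluster it was at 176 and 176 CPM in Control and 150 and 162 CPM in Fracture and was not called, where 23.3% of all genes were. Sinusoidal cells, at 231 and 247 CPM in Control and 205 and 216 CPM in Fracture, were not called either.

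BMSC-like Ptgs1 rose from 5.70 and 2.61 to 11.4 and 8.41 CPM (log2 fold change 1.43, SE 0.40, edgeR adjusted p = 0.0380), and osteoblast-like Ptgs1 fell from 8.95 and 8.80 to 6.69 and 6.26 CPM (log2 fold change -0.52, SE 0.10, edgeR adjusted p = 0.0360). Both were low, and erythroid-like cells held 6.30 and 1.26 CPM in Control and 6.15 and 4.43 CPM in Fracture. The thinned Control shares were 0.60% and 0.22% in BMSC-like and 0.84% and 1.17% in osteoblast-like cells. They overlapped the erythroid-like 1.31% and 0.23% and were not above the higher of these. The Fracture shares, 1.04% and 0.76% in BMSC-like and 0.66% and 0.64% in osteoblast-like cells, were above the erythroid-like 0.51% and 0.42%. In chondrocyte-like cells Ptgs1 was at 32.6 and 30.4 CPM in Control and 29.4 and 27.7 CPM in Fracture (log2 fold change 0.01, 95% interval -0.17 to 0.18). Fibroblast-like cells, from 40.1 and 49.7 to 31.4 and 30.7 CPM, did not pass the test (edgeR adjusted p = 0.0883), nor did smooth muscle-like cells. Within chondrocyte-like cells the Lcn2-led cluster alone was called, and fell from 29.3 and 31.9 to 17.1 and 17.4 CPM.

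The effect of fracture differed between the 6 classes for 6 of the 7 members. Among these, Ptgds passed the filter by class in chondrocyte-like cells alone. Its difference rests on few UMIs in the other classes. In one fit over 24 sums with the preparation as a block, the class-by-group terms taken jointly were called for Ptgis, Ptges, Ptger4, Ptgds, Ptgs1 and Hpgd, with edgeR adjusted p from 3.18e-07 to 0.00267, beside 61.9% of all genes. Ptgs2 did not pass it (edgeR adjusted p = 0.0590). The rise of Ptgs2 is therefore not shown to differ between classes.

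The pathway list held 28 further genes, of which 26 were in the tables. Values in parentheses are log2 fold changes of genes called by edgeR. No test of the list or of a role was run, and the shares of all genes called are given beside the counts. In chondrocyte-like cells 6 of 24 tested rose and 2 fell, where 19.1% of all genes were higher and 18.2% lower. Cytosolic phospholipase A2, Pla2g4a, which frees arachidonic acid, rose from 5.96 and 6.74 to 55.1 and 52.5 CPM (log2 fold change 3.23), and Pla2g16 from 15.7 and 16.1 to 108 and 101 CPM (log2 fold change 2.86). The secreted phospholipase Pla2g5 fell from 186 and 198 to 49.1 and 49.0 CPM (log2 fold change -1.82). The others that rose were Pla2g12a (0.99), the prostaglandin reductase Ptgr1 (0.48), Fam213b (0.40) and the transporter Slco2a1 (2.35), which stayed under 1 CPM. The constitutive prostaglandin E synthase Ptges3 fell (-0.60).

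In BMSC-like cells 6 of 23 rose and 6 fell, near the 25.6% and 26.0% of all genes. Pla2g4a rose from 40.3 and 32.8 to 77.6 and 77.1 CPM (log2 fold change 1.27), Pla2g16 by 1.15, Pla2g12a by 1.08, Ptgr1 by 1.21, the synthase Ptges2 by 0.79 and the exporter Abcc4 by 0.73 on the log2 scale. The receptor of prostaglandin F2 alpha, Ptgfr, fell from 112 and 147 to 14.2 and 20.9 CPM (log2 fold change -2.69). Slco2a1 (-1.66), Pla2g15 (-1.38), the thromboxane synthase Tbxas1 (-0.71), Zadh2 (-0.63) and the thromboxane receptor Tbxa2r (-0.60) also fell.

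In endothelial-like cells 6 of 23 rose and 5 fell, beside 18.5% and 16.6% of all genes. Among the receptors, 3 of 5 tested fell: Ptger2, which like EP4 raises cyclic AMP, from 8.79 and 18.5 to 1.56 and 1.79 CPM (log2 fold change -2.89), Tbxa2r from 64.8 and 80.0 to 32.7 and 30.9 CPM (-1.07) and Ptger1 from 33.1 and 31.2 to 19.1 and 15.5 CPM (-0.77). Abcc4 (-0.49) and Ptges3 (-0.46) fell too. Those that rose were Pla2g10 (2.7), Pla2g4a (2.24), Pla2g5 (1.61), Ptgr1 (1.11), Pla2g12a (0.75) and Slco2a1 (0.48). Pla2g10 and Pla2g5 were leading genes of the hypertrophic and the Serpina1a-led chondrocyte clusters, and endothelial-like cells in Fracture held 2.29 and 2.09 CPM of Pla2g10 and 10.7 and 9.83 CPM of Pla2g5. Erythroid-like cells there held 3.07 and 1.39 CPM of Pla2g10 and 12.3 and 16.1 CPM of Pla2g5. Pla2g4a was not called without the endothelial-like clusters led by cartilage, bone or haemoglobin genes (edgeR adjusted p = 0.0580).

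In smooth muscle-like cells 2 of 18 rose and 5 fell, beside 14.5% and 12.9% of all genes. The EP3 receptor Ptger3 fell from 33.3 and 24.9 to 0 and 0.65 CPM, Ptger2 from 22.8 and 35.7 to 9.04 and 8.41 CPM (-1.68), Tbxa2r from 41.4 and 24.9 to 12.5 and 9.05 CPM (-1.64), Pla2g16 by 0.96 and Ptges3 by 0.69. The prostacyclin receptor Ptgir rose from 13.6 and 11.7 to 22.9 and 25.2 CPM (0.92), as did Pla2g4a (1.22). In osteoblast-like cells 2 of 18 rose, Fam213b (0.98) and Abcc4 (0.72), and Pla2g5 (-0.92) and Ptgr2 (-0.48) fell, beside 9.63% and 6.55% of all genes. In fibroblast-like cells Pla2g16 alone of 22 was called (0.96), beside 7.78% higher and 7.41% lower of all genes.

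Over the 24 class sums, the genes whose log2(CPM + 1) followed each member most closely were found among 9736 genes, as a description of sums that share libraries and cell classes. Hpgd was followed by the mineralisation genes Alpl (Pearson's r = 0.951), Ibsp (0.919) and Sp7 (0.911). Ptgds was followed by BC030870 (0.968), Mia (0.955) and Slc2a5 (0.949), and Ptgis by Ell2 (0.919), Fgfr1 (0.919) and Fam46a (0.911). Ptger4 was followed by Ank3 (0.946), Cx3cl1 (0.944) and Stard3nl (0.938), and Ptgs1 by Itgb4 (0.908), Ptpre (0.904) and Erg (0.902). Ptgs2 was followed by Ddb1 (0.923), Slc25a1 (0.902) and C1qtnf3 (0.887), and Ptges by Kremen1 (0.881), Amacr (0.879) and Sulf1 (0.877).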

How the data were processed

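The sources were 8 single-cell RNA libraries of mouse femoral stromal cells, made with the 10x Chromium 3 prime kit. The authors deposited UMI counts by gene and barcode, not normalised. The submitters' processing notes name bcl2fastq 2.19.1.403, UMI-tools 1.0.0, STAR 2.7.3a, Subread featureCounts 1.6.4 and mm10, and the published methods name STARsolo and GENCODE annotation, so which step counted, and whether it used strand, is not settled. Free RNA or a loose choice of barcodes would add counts of one class to another.

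Cells with 500 to 6000 genes and at most 25% mitochondrial UMIs were kept, with genes found in at least 3 cells. Libraries were integrated and clustered in Seurat 5.3.0 on R 4.3.3 (12 components, resolution 0.1) without the pathway genes, and clusters were named from marker lists. Scrublet in scanpy 1.11.5 called 722 doublets (1.59%), kept outside one alternative. Class sums of UMIs were formed for each preparation, with a minimum of 20 cells, and tested between the groups in edgeR 4.0.16 (quasi-likelihood, TMM, filter on low counts, Benjamini-Hochberg over all genes of the class). Printed CPM are plain, and fold changes TMM-normalised. Shares of cells are the expectation after thinning to 1000 UMIs, leaving out shallower cells. The interval of the Ptges ratio in osteoblast-like cells covers counting error only. The SE of a log2 fold change is the size of the fitted change over the square root of the edgeR F statistic. The intervals of log2 fold changes are built from this SE. Both follow the spread between preparations and can be narrower than counting error alone, most where a group holds few UMIs. DESeq2 1.42.0, Matrix 1.6.5, limma 3.58.1, Python 3.11.15, numpy 2.4.6, scipy 1.17.1, pandas 2.3.3 and matplotlib 3.10.9 were also used. Coordinates are GENCODE M21 (GRCm38).

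All 7 members were named, with every gene of the pathway list called in a class, and the 3 genes most correlated with each member among those with at least 20 CPM in a sum. The members and lists were chosen with earlier results of these data known. On simulated counts with 200 changed genes, the test recovered 86.0% of them in chondrocyte-like (17272 genes), 93.5% in BMSC-like (14723), 94.0% in osteoblast-like (13778), 84.5% in fibroblast-like (12694), 95.0% in endothelial-like (14218) and 89.5% in smooth muscle-like cells (10427), and 4.97%, 1.06%, 5.05%, 6.63%, 5.0% and 1.65% of the calls in these classes were false. These shares hold only for the size of change and the spread that were simulated. Recovery of smaller changes was not tested, so the shares do not measure how well small fold changes were found. Normalisation, filter, doublets, depth, clustering, thinning, a replicate block and leaving out each preparation were tried as alternatives.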

Additional observations from a re-analysis of the deposited data

Results flagged for a closer look

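The difference of the fracture effect between classes was tested in the fit over 24 sums, and 6 members passed it jointly (edgeR, Benjamini-Hochberg adjusted p): Ptgis 3.18e-07, Ptges 7.10e-07, Ptger4 4.19e-05, Ptgds 7.70e-05, Ptgs1 0.000320 and Hpgd 0.00267. Each class was then set against the mean of the other 5, as a difference of log2 fold changes, and 16 such differences passed (edgeR adjusted p from 8.38e-07 to 0.0419). For Ptges this was -4.19 in endothelial-like and 3.83 in osteoblast-like cells, the latter with 1 UMI in Control. For Ptgis it was 2.17 in endothelial-like, 1.34 in chondrocyte-like, -0.98 in osteoblast-like and -1.94 in fibroblast-like cells. The endothelial-like share of cells with Ptgis in Fracture was below that of erythroid-like cells, and its log2 fold change went from 2.33 to 1.21 without the clusters led by cartilage, bone or haemoglobin genes. For Hpgd it was 2.13 in smooth muscle-like, 1.34 in endothelial-like and -1.36 in osteoblast-like cells. For Ptger4 it was 1.09 in chondrocyte-like, -0.77 in BMSC-like and -2.13 in endothelial-like cells. The chondrocyte-like level was about 1 CPM, and the BMSC-like fall was not kept without integration. For Ptgs1 it was 1.36 in BMSC-like, -0.74 in endothelial-like and -0.90 in osteoblast-like cells. For Ptgds it was -4.15 in chondrocyte-like cells, where the other classes held few UMIs.

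Single libraries stood apart in 2 of 61 groups of 4 libraries, and chance gives about 1 in 20. In endothelial-like cells of Fracture preparation 1, library 1 held 4.13 CPM of Ptges, against 3.06 to 3.21 CPM in the other Fracture libraries. In endothelial-like cells of Fracture preparation 2, library 2 held 116 CPM of Ptgs1, against 98.5 to 101 CPM in the others.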

How the results depend on the processing

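Of the 36 pairs of a member and a class, all stayed called or uncalled with size factors of DESeq2 in edgeR and with cells of at least 3000 UMIs. The same held for 35 with the DESeq2 test and at resolution 0.2, and for 32 with plain library size. Called pairs among these kept their direction, and a change of sign between uncalled values was not counted. With the replicate block the calls were 16 higher and 4 lower, against 18 and 8 without it, and the calls lost were Hpgd in chondrocyte-like, Ptges in endothelial-like, Ptgis in fibroblast-like and osteoblast-like, Ptgs1 in osteoblast-like and Ptgs2 in smooth muscle-like cells. Preparations with the same number were correlated at only 0.016 to 0.059 in their deviations, so the numbers were not taken as pairs. Without integration of the libraries, BMSC-like Ptger4 turned to 0.10 (edgeR adjusted p = 0.842) and BMSC-like Ptges to -0.11 (edgeR adjusted p = 0.915), and the cause was not tested. Hpgd, Ptgis and Ptgs1 in BMSC-like, Ptges in endothelial-like, Ptgs1 in osteoblast-like and Hpgd in smooth muscle-like cells then lost their calls, and Ptgs1 in fibroblast-like and Ptgis in smooth muscle-like cells gained one.

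Leaving out 1 preparation gave 5 to 21 higher and 1 to 9 lower calls, 4 to 6 members whose effect differed between classes, and 12 to 54 calls over subclasses, against 42 with all 4, the last chosen after seeing the data. Without Fracture preparation 1 the calls lost were 20 and without Fracture preparation 2 they were 19, with the spread then estimated from Control alone. Ptgs2, Ptges, Ptgis and Ptgds in chondrocyte-like cells and Ptgs2 and Ptges in BMSC-like cells remained called without either one.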
